A study of Mus musculus with 1024 samples.

Results

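A set of 10 genes of actin turnover and the cell cortex was followed through single cells of the mouse aorta: the cytoplasmic actins Actb and Actg1, the monomer-binding genes Pfn1, Tmsb4x and Tmsb10, the filament-severing genes Cfl1 and Gsn, the membrane linkers Ezr and Msn, and the intermediate filament gene Vim. They were chosen by name, with earlier results of these data known, as 10 of the 24422 genes of the count table. All 10 passed the filter on low counts in every comparison. Wells were sorted from dissociated aortas of mice aged 3 months through a Cd31+ Cd45- gate, labelled Endothelial, or a Cd31- Cd45- gate, labelled DoubleNegative, and sequenced with Smart-seq2, which copies and amplifies the polyadenylated RNA of a single cell. The genotype labels are WT and KO, each with 2 sorts, here called preparations 1 and 2. All wells carry the same strain label, Amotl2flow/flow / Cdh5-RREert /ROSA26-EYFP, so the floxed allele, the endothelial Cre line and the reporter are given for WT and KO alike. In the study's methods the strain is amotl2flox/flox with Cdh5(PAC)CreERT2 and ROSA26-EYFP on a C57BL/6 background, the Cre is driven by the promoter of the endothelial cadherin gene and started with tamoxifen, and both sexes were included. A deletion made this way lies in endothelial cells, and DoubleNegative cells of KO mice are neighbours of the cells that lost the gene. The mice behind each well are not named, so the preparation is the replicate, with 2 per genotype.

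Actin filaments grow from actin monomers and are taken apart again within minutes to hours, and most monomers in a cell are held in reserve by small binding proteins. Thymosins keep monomers out of filaments, profilin recharges monomers and hands them to growing ends, cofilin and gelsolin cut filaments, and the ERM proteins ezrin and moesin tie filaments to the plasma membrane. Endothelial cells of arteries use this machinery to align with flow and to hold their junctions, and smooth muscle cells carry a large additional contractile actin apparatus.

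Wells were kept if their genes held 20000 or more counts and 500 or more genes were detected, 784 of 1024, of which 676 were Endothelial and 108 DoubleNegative. Their counts were summed per genotype, gate and preparation into 8 sums of 926398 to 94881185 counts, and levels are given as counts scaled to a common total of gene counts per sum (CPM) in the order WT 1, KO 1, WT 2 and KO 2, where the number is the preparation. A CPM is a share of a sum, so less RNA of a gene and more RNA of all others cannot be told apart. WT and KO of preparation 1 were on different plates, and in that preparation an effect of the plate cannot be told apart from one of the genotype, while preparation 2 had both on 1 plate. The KO Endothelial sum of preparation 1 had 35.7 gene counts per spike-in count, and the other 3 Endothelial sums had 57.8 to 61.5. EYFP, the reporter of recombination, stood at 2.38, 113, 0.353 and 85.5 CPM in the Endothelial sums and at 0 in all 4 DoubleNegative sums. Amotl2 stood at 59.9, 51.9, 94.0 and 45.7 CPM in the Endothelial sums, but counts per gene do not resolve the deleted exon and so do not check the deletion. All 9 endothelial markers had counts in the Endothelial sums, at a summed 14320 to 16900 CPM. In 656 of 676 Endothelial wells the endothelial markers exceeded those of smooth muscle and fibroblasts. The smooth muscle list stood at 737 to 1667 CPM and the fibroblast list at 162 to 471 CPM in these sums, with all 7 markers of each list detected. The leukocyte list was at 11.8 CPM or less, with 2 of 8 markers at 0.

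Within the Endothelial wells the members spanned a wide range of levels. Levels were divided by the joint length of all annotated exons of a gene (TPM, transcripts scaled to a common total). This length was 4743 bases for Vim and 2405 for Pfn1, against 2193 and 861 in their main transcripts. The order of the members depends on this choice. Tmsb4x was the highest at 5440 ± 865 TPM (SD, n = 4 sums), between the 8th and the 20th of 23376 genes with a length. Actb followed at 4490 ± 1029 TPM and Vim at 3012 ± 335 TPM. The ranges of Tmsb4x and Actb overlapped, and so did those of Actb and Vim. A second tier held Actg1 at 518 ± 80.7, Msn at 500 ± 71.8, Cfl1 at 485 ± 58.5, Gsn at 383 ± 106, Pfn1 at 344 ± 38.8 and Tmsb10 at 305 ± 41.1 TPM, and no neighbours in that order were separated beyond their ranges. The lowest Vim sum, 2598 TPM, lay above the highest Actg1 sum, 624 TPM. Ezr was lowest at 47.8 ± 11.9 TPM, and its highest sum, 60.8 TPM, lay below the lowest of Tmsb10, 250 TPM. Together the 10 genes took 1.05% to 1.23% of the gene counts in the Endothelial sums and 2.37% to 3.13% in the DoubleNegative sums.

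The 2 cytoplasmic actins are separate genes for nearly the same protein, with Actb on chr5:142903115-142906754 (minus strand) and Actg1 on chr11:120345690-120348542 (minus strand) in GRCm38. Their coding sequences of 1125 bases were 88.6% identical, with 128 differences. The first 60 bases of each are shown because the counts of these genes rest on how far reads can tell them apart, with the differing bases in capitals.
Actb: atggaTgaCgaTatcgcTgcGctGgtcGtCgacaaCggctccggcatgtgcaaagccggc
Actg1: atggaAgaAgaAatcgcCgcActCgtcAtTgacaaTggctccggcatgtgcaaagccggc
Of the 50-base windows of the main transcript, 56.7% of Actg1 and 14.2% of Actb also occurred in transcripts of other annotated genes, mostly processed copies for Actg1. Reads that align to several places were 32% of all counts in the table and were assigned to no gene. Reads of such windows can be missing from the levels of Actg1, and from those of Tmsb10 with 43.5% and Cfl1 with 23% of windows shared. How many were lost was not measured, which also limits the TPM order given above. Smart-seq2 does not keep strand, and Cfl1, Ezr and Msn have exons that overlap Snx32, Sytl3 and Gm24718 on the opposite strand, where reads cannot be told apart. Those of Actg1 overlap Gm23419 and Mir6935 on its own strand. Vim, Gsn, Msn, Pfn1 and Tmsb4x shared no such window with another gene.

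**Figure D1:**
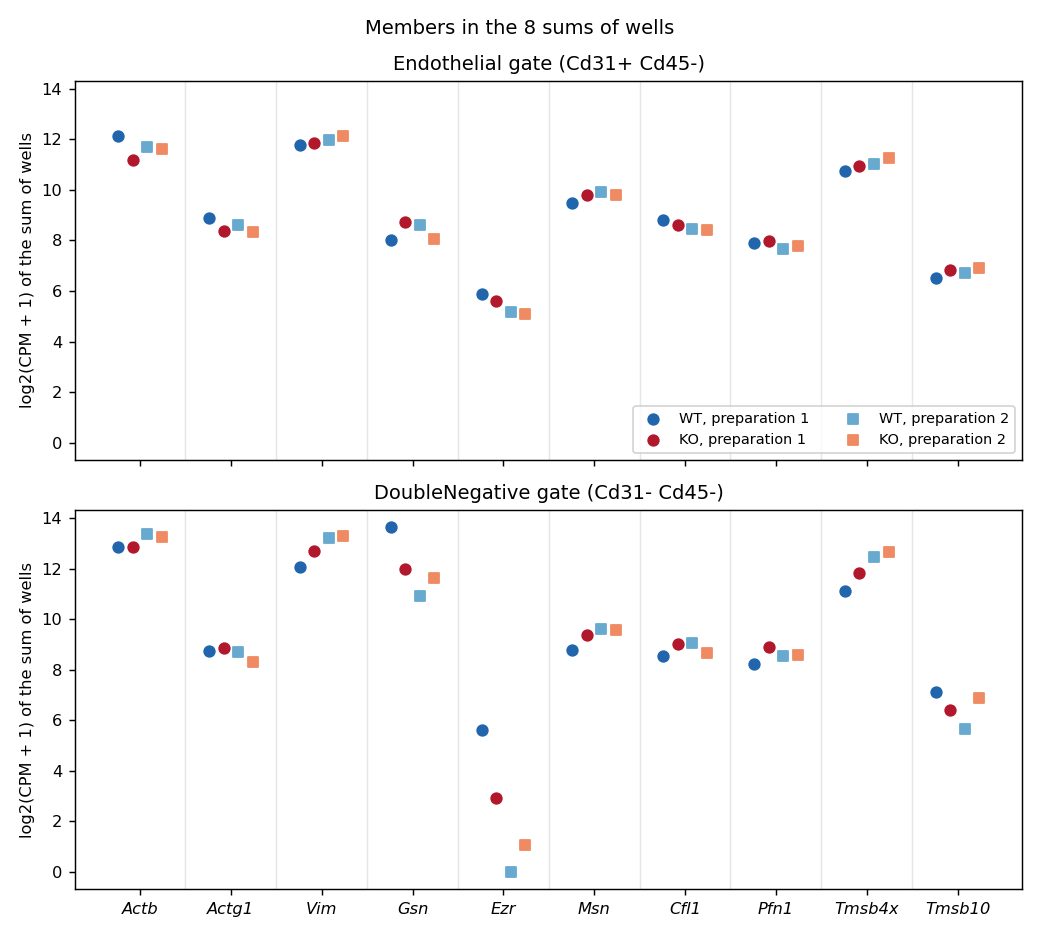
Level of each member as log2(CPM + 1) in the 8 sums of wells, with the Endothelial gate above and the DoubleNegative gate below; circles are preparation 1, squares preparation 2, blue WT and red KO. The 4 Endothelial sums lie close together for most members, while Gsn and Ezr spread widely over the DoubleNegative sums, from 1946 to 12670 CPM and from 0 to 47.3 CPM.

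The first comparison set the Endothelial sums against the DoubleNegative sums, which asks how the cortical genes of the endothelium stand against those of the other wall cells. Of the 10 members, 5 were called and all 5 were lower in the Endothelial wells: Actb, Vim, Gsn, Pfn1 and Tmsb4x (edgeR's quasi-likelihood test over 12729 genes, Benjamini-Hochberg adjusted). Over all genes tested, 19% were called, 9.25% as lower and 9.79% as higher in Endothelial wells. The median log2 difference was -0.61 over the members and 0.15 over all genes. In 3 members, Actb, Gsn and Pfn1, the 4 Endothelial sums did not overlap the 4 DoubleNegative sums, against 25.6% of all genes. A list of 10 genes that dissociation is known to raise, Fos and Atf3 among them, summed to 3187, 2844, 5947 and 2561 CPM in the Endothelial sums and to 7528, 11460, 6694 and 4256 CPM in the DoubleNegative sums. It was lower in the Endothelial sum of each sample, 3 of its 10 genes were called as lower and none as higher, and its part in the members' differences was not tested.

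Actb, the main cytoplasmic actin, stood at 4441, 2351, 3359 and 3179 CPM in the Endothelial sums and at 7386, 7295, 10480 and 9759 CPM in the DoubleNegative sums. Every Endothelial sum was below every DoubleNegative sum. The log2 difference was -1.52 (SE 0.28, adjusted p = 0.00629 in edgeR), a level 2.87-fold higher in DoubleNegative wells, and the call held in all 16 alternatives, with log2 differences of -1.83 to -1.37. Actg1, the second cytoplasmic actin, stood at 475, 331, 392 and 325 CPM against 424, 456, 418 and 310 CPM. Its sums overlapped and the difference of -0.20 was not called, with a 95% interval from -0.75 to 0.35 on the log2 scale.

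Among the genes that bind monomers, Pfn1 (profilin 1, chr11:70651850-70654644, minus strand) stood at 239, 254, 202 and 217 CPM in Endothelial wells and at 299.8, 480, 373 and 377 CPM in DoubleNegative wells. All 4 Endothelial sums were lower, with a log2 difference of -0.85 (SE 0.24, adjusted p = 0.0384 in edgeR). Leaving out 1 sum ended this call in 6 of 8 cases, for any Endothelial sum or either KO DoubleNegative sum, with adjusted p of 0.0567 to 0.198 in edgeR. Tmsb4x (thymosin beta 4, chrX:167207093-167209315, minus strand), the main monomer reserve of many cells, stood at 1709, 1981, 2081 and 2438 CPM against 2214, 3654, 5543 and 6451 CPM. In each of the 4 samples the Endothelial sum was lower than the DoubleNegative sum, though the groups overlapped through the WT DoubleNegative sum of preparation 1. The log2 difference was -1.23 (SE 0.36, adjusted p = 0.0425 in edgeR), and leaving out any Endothelial sum or either DoubleNegative sum of preparation 2 ended the call, at adjusted p of 0.0613 to 0.154. Tmsb10 (thymosin beta 10, chr6:72957347-72958748, minus strand) binds monomers in the same way. It stood at 91.1, 114, 104 and 118 CPM against 138, 83.2, 49.6 and 116 CPM, and its difference of 0.02 on the log2 scale was not called, with an interval from -0.78 to 0.82.

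The 2 thymosins are coded by short open reading frames of 132 bases that were identical at 92 positions, or 69.7%. They are shown whole because their levels ran in opposite directions between classes of wells, given below, with the differing bases in capitals.
Tmsb4x: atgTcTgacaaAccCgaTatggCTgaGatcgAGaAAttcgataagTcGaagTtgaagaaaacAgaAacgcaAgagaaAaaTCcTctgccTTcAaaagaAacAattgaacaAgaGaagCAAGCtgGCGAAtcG
Tmsb10: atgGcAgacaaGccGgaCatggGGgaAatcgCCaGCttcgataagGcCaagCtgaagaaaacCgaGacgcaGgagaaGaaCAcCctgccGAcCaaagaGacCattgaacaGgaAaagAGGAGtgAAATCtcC
The longest stretch without a difference was 10 bases, so reads of these 2 genes are unlike each other.

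Of the 2 genes that cut filaments, Gsn (gelsolin, chr2:35256380-35307892, plus strand), which severs and caps filaments in the presence of calcium and also has a secreted form, showed the largest difference of the members. It stood at 255, 421, 386 and 264 CPM in Endothelial wells and at 12670, 4007, 1946 and 3166 CPM in DoubleNegative wells. No sums overlapped, and the log2 difference was -4.07 (SE 0.56, adjusted p = 0.00154 in edgeR), or 16.8-fold. It was called in all 16 alternatives, but the size ranged from -4.46 to -1.15. The smallest was against smooth muscle-like wells alone. The summed fibroblast markers were in the same order as Gsn over the DoubleNegative sums, at 30170, 15380, 4109 and 7900 CPM with all 7 markers detected, and at most 471 CPM in any Endothelial sum. Cfl1 (cofilin 1, chr19:5490455-5495201, plus strand), which severs aged filaments, stood at 450.0, 389, 345 and 337 CPM against 371, 511, 525 and 404 CPM. It was not called, with a difference of -0.36 and an interval from -0.93 to 0.20.

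The 2 ERM genes, Ezr (ezrin, chr17:6738041-6782784, minus strand) and Msn (moesin, chrX:96096042-96168552, plus strand), were each fitted as higher in Endothelial wells and neither was called. Ezr stood at 57.2, 48.1, 34.9 and 33.4 CPM against 47.3, 6.57, 0 and 1.08 CPM. In every sample the Endothelial sum was higher, and 1 DoubleNegative sum, WT of preparation 1, reached the Endothelial range. The log2 difference was 1.91 (SE 0.92, adjusted p = 0.196 in edgeR). Without the WT DoubleNegative sum of preparation 1 it was 8.07. That size depends on the prior count, since the WT DoubleNegative sum that remains was at 0 CPM. Msn, the far more abundant of the pair in these cells, stood at 715, 894, 970.2 and 899.9 CPM against 439, 660.2, 771 and 747 CPM, higher in the Endothelial sum of each sample, with a difference of 0.30 and an interval from -0.31 to 0.91.

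Vim, the intermediate filament gene of mesenchymal and endothelial cells (chr2:13573927-13582826, plus strand), stood at 3524, 3739, 4029 and 4439 CPM against 4307, 6573, 9506 and 9992 CPM. The Endothelial sum was the lower in every sample, and the groups overlapped narrowly through the WT DoubleNegative sum of preparation 1. The log2 difference of -1.06 (SE 0.32, adjusted p = 0.0488 in edgeR) was at the edge of the threshold. The call held in 6 of 16 alternatives and was lost in 7 of the 8 that left out a sum, all but that without the WT DoubleNegative sum of preparation 1, at adjusted p of 0.0558 to 0.181.

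The DoubleNegative gate holds more than 1 kind of cell, and the members differed between them. By marker lists that contain no member, 70 of its 108 wells were smooth muscle-like and 37 fibroblast-like, and 1 was neither. In that well, of WT in preparation 2, the endothelial markers exceeded both other lists, and the endothelial markers summed to 1216 CPM in this DoubleNegative sum of 12 wells against 5.40 to 31.8 CPM in the other 3. The well is not among the smooth muscle-like or fibroblast-like sums below. Fibroblast-like wells were 26 of 42 in WT and 9 of 40 in KO of preparation 1, and 1 of 12 and 1 of 14 in preparation 2. The shares in preparation 1 were 61.9% (exact 95% binomial interval 45.6% to 76.4%) and 22.5% (10.8% to 38.5%), intervals that cover counting error only. Sums of a class with at least 5 wells were compared as a description with no test, 4 smooth muscle-like and 2 fibroblast-like. In 9 of the 10 members these did not overlap, against 27.7% of all genes, a count made after the values were seen.

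In 6 members the smooth muscle-like sums were the higher. Actb stood at 12660, 8648, 11230 and 10790 CPM in the smooth muscle-like sums and at 4246 and 2803 CPM in the fibroblast-like sums of WT and KO of preparation 1. Tmsb4x stood at 4874, 4534, 6008 and 7255 CPM against 629 and 729 CPM, a ratio of 8.35 between the means. Vim, at a ratio of 3.86, Msn at 2.56, Pfn1 at 2.51 and Cfl1 at 2.02 went the same way. In 3 others the fibroblast-like sums were the higher. Gsn stood at 660, 687, 496 and 725 CPM against 19830 and 15030 CPM, a ratio of 27.2 between the means. Tmsb10 stood at 41.2, 37.2, 31.0 and 38.1 CPM against 196 and 236 CPM, 5.86 times higher. Ezr stood at 8.07, 0.414, 0 and 1.23 CPM against 70.7 and 27.0 CPM. The 2 thymosins therefore ran in opposite directions between these classes, and Actg1 alone overlapped, at 350.1 to 524 CPM against 364 and 400.3 CPM.

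Against single classes the Endothelial sums stood apart in some members and overlapped in others. All 4 Endothelial sums were below all 4 smooth muscle-like sums in Actb, Vim, Gsn, Pfn1 and Tmsb4x. They were above them in Ezr and Tmsb10, in all 7 members against 29.8% of all genes, while Actg1, Msn and Cfl1 overlapped. The 2 fibroblast-like sums were of preparation 1 only. Against them, Vim, Msn, Cfl1, Pfn1 and Tmsb4x were higher and Gsn and Tmsb10 lower in the Endothelial sums. These were again 7 members, against 49.1% of all genes, while Actb, Actg1 and Ezr overlapped. Tmsb10 thus lay between the classes, at 107 CPM in the mean of the Endothelial sums, 36.9 CPM in smooth muscle-like and 216 CPM in fibroblast-like sums. The fit that kept only Endothelial wells with endothelial markers highest and smooth muscle-like wells called 7 of 10 members, against 24.8% of 12339 genes, 9.81% as lower and 15% as higher. The 5 lower members were Actb (-1.83), Vim (-1.32), Gsn (-1.15), Pfn1 (-1.12) and Tmsb4x (-1.56). The 2 higher were Ezr, at 4.69 (SE 0.86, adjusted p = 0.00319 in edgeR), and Tmsb10, at 1.47 (SE 0.28, adjusted p = 0.00373 in edgeR). The size for Ezr depends on few reads and on the prior count, with its smooth muscle-like sums at 0 to 8.07 CPM. Cfl1, at -0.57, missed the threshold with an adjusted p of 0.0641 in edgeR.

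**Figure D2:**
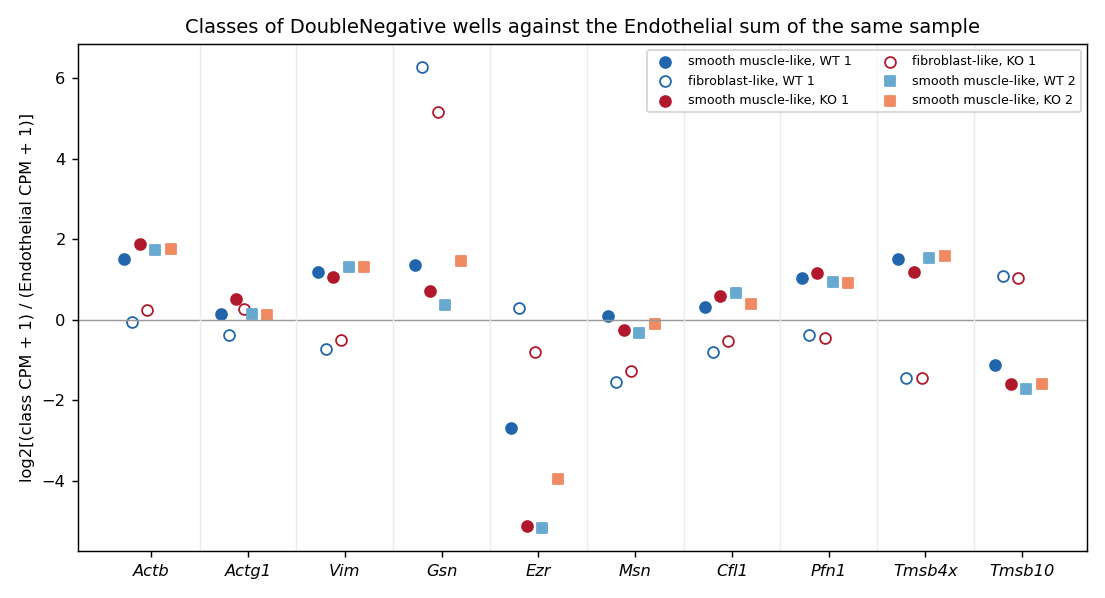
Members in the smooth muscle-like sums (filled) and the fibroblast-like sums (open) of the DoubleNegative gate, each as the log2 ratio of CPM + 1 to the Endothelial sum of the same sample, so that 0 is the Endothelial level. Filled and open points lie on opposite sides of 0 for Tmsb4x, Tmsb10, Vim, Cfl1 and Pfn1, and the open points of Gsn are the highest; the 2 fibroblast-like sums of 1 well are not drawn.

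The genes around the members in the actin system also differed between the gates. Of 109 genes in 9 lists, 101 were tested, and 27 were lower and 18 higher in Endothelial wells, with a median log2 difference of -0.0011. The share called was 44.6% against the 19% of all genes. The lists were chosen with earlier results of these data known, so this share is a description and not a test. Of the 9 Arp2/3 complex subunits, which branch filaments, 1 was lower and 1 higher. Of 10 formins and elongation factors 2 were lower and 1 higher, and of 15 genes of monomer binding and filament disassembly 4 were lower and none higher. The capping and gelsolin family had 3 of 10 lower and 1 higher. Crosslinkers and adhesion linkers had 5 of 13 lower and 2 higher, and non-muscle myosin and tropomyosin 4 lower and 4 higher of 9. Partners of ERM proteins and the membrane cortex had 1 of 16 lower and 4 higher, at a median of 0.69. All 6 tested intermediate filament and linker genes were called, 4 lower and 2 higher.

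Among the called genes with the same direction in all 4 samples, the largest differences were as follows. Podxl (podocalyxin), a sialomucin bound to ezrin through its adaptors, stood at 350.3, 249, 235 and 244 CPM in Endothelial sums and at 0 in all DoubleNegative sums, at least 1620-fold higher when 3 counts over the DoubleNegative group are taken as the floor. Slc9a3r2, one of those adaptors, stood at 708, 391, 468 and 398 CPM against 15.1, 31.0, 74.9 and 38.9 CPM. Krt18, a keratin of simple epithelia, was at 110, 108, 140 and 85.6 CPM against 0.603, 15.6, 0 and 0 CPM. Rnd1, whose product loosens actin fibres, had a log2 difference of 4.44 (SE 0.68, adjusted p = 0.00272 in edgeR), and Evl, an Ena/VASP elongation factor with 0 counts in DoubleNegative wells, was at least 15.3-fold higher at only 0.826 to 3.62 CPM. On the lower side, Tpm2, a tropomyosin of contractile filaments, stood at 28.9, 64.4, 11.7 and 52.9 CPM against 1089, 1979, 3122 and 3294 CPM. Des (desmin), the muscle intermediate filament gene, had a log2 difference of -6.82 (SE 1.04, adjusted p = 0.00264 in edgeR), Cap2, a monomer-recycling gene, -5.78 (SE 1.22, adjusted p = 0.012) and Enah, a relative of Evl, -4.21 (SE 0.42, adjusted p = 0.00039). Scin, a gelsolin relative, was at or near 0 in Endothelial sums and at 2.02 to 3.39 CPM in DoubleNegative sums.

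The second comparison was KO against WT in the Endothelial wells, the cells in which Amotl2, a scaffold between junctional cadherins and actin, was deleted. No member was called among 12702 genes. The background was equally empty, with 0 genes or 0.0% called by edgeR, 468 at an unadjusted p under 0.05 and 55 called by DESeq2, none of them a member. In simulated sums of this depth, with 1 spread for all genes, the test found 0% of 200 genes given a log2 change of 1. It found 3.5% of those given 2 and 56.5% of those given 3. The simulated spread was not set to that of each member, so these shares do not say which changes in members were detectable. The members' standard errors ran from 0.25 to 0.35 on the log2 scale. Fitted changes ran from -0.47 to 0.26 with a median of 0.09, against 0.00 over all genes, and each adjusted p was 0.9995 in edgeR.

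Actb had the largest fitted change, -0.47 (95% interval -1.13 to 0.19), which was -0.19 without the KO sum of preparation 1, -0.29 without the WT sum of preparation 1 and -0.81 without the KO sum of preparation 2. KO stood against WT at 3179 against 3359 CPM in preparation 2 and at 2351 against 4441 CPM in preparation 1, in which the genotypes were on different plates. The TMM-scaled log2 differences were 0.00 and -0.99. The medians over single wells were 3678, 1862, 3277 and 2947 CPM in the order above. Actg1 was lower in the KO of both preparations, by 0.59 and 0.19 on the log2 scale, with a fitted change of -0.39 (interval -0.96 to 0.17). Tmsb10 was higher in both, at 0.26 and 0.26, with gene counts as the total though not with spike-in counts (given below), and had a fitted change of 0.26 (interval -0.33 to 0.85). In these 2 members the KO sums did not overlap the WT sums, against 30.5% of all genes.

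Vim, Pfn1 and Tmsb4x were also fitted as higher in the KO of both preparations, with intervals from -0.47 to 0.73, from -0.46 to 0.66 and from -0.39 to 0.86. These directions in preparation 1 rest on gene counts as the total. Scaled by spike-in counts instead, an alternative added after the data were seen, all 10 members were lower in KO of preparation 1, at -0.70 for Vim, -0.70 for Pfn1, -0.57 for Tmsb4x and -0.46 for Tmsb10 on the log2 scale. In preparation 2, with both genotypes on 1 plate, these 4 stayed higher in KO, at 0.08, 0.04, 0.17 and 0.12. Whether the lower ratio of gene to spike-in counts in KO of preparation 1 belongs to the plate or the genotype cannot be told apart. In the TMM scaling of the fit, Actb, shown above, and Gsn, Ezr, Msn and Cfl1 changed sign between preparations. The preparation 2 values of Actb, Ezr and Cfl1 were only 0.003, 0.021 and 0.048 on that scale. By CPM, Actb, Ezr and Cfl1 were lower in the KO of both preparations. Gsn was higher in KO of preparation 1 (421 against 255 CPM) and lower in preparation 2 (264 against 386 CPM). In Endothelial wells whose own markers were highest, Gsn stood at 210, 359, 386 and 265 CPM, and the summed fibroblast markers were at 209 in place of 471 CPM in the KO sum of preparation 1. Ezr, Msn and Cfl1 had intervals from -0.96 to 0.60, from -0.51 to 0.71 and from -0.70 to 0.45. Of the 103 tested genes of the 9 lists, none was called and 1 had an unadjusted p under 0.05. The 3 with the smallest p were Tpm2 at 28.9, 64.4, 11.7 and 52.9 CPM, Synm at 8.64, 18.1, 5.21 and 13.7 CPM, and Arpc5l at 66.8, 84.3, 44.8 and 85.6 CPM, each higher in the KO of both preparations. Smooth muscle markers summed to 1185, 1667, 737 and 856 CPM in these sums, with all 7 detected, and were also higher in both KO sums. In the Endothelial wells whose own markers were highest they summed to 502, 392, 645 and 301 CPM, lower in both KO sums. In those wells Tpm2 stood at 0.771, 6.99, 4.51 and 0.597 CPM and was no longer higher in both KO sums, while Synm stood at 7.97, 15.3, 5.22 and 13.1 CPM and Arpc5l at 65.3, 83.4, 44.1 and 86.3 CPM. All 10 dissociation-raised genes were fitted as lower in KO and none was called, 4 of them at an unadjusted p under 0.05 in edgeR, and their part in the members' values was not tested.

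**Figure D3:**
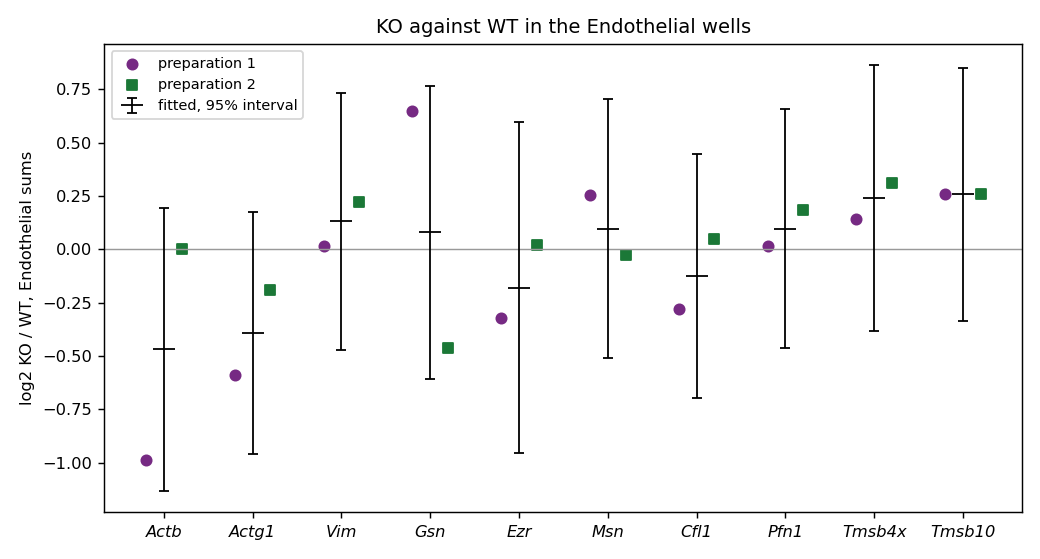
KO against WT in the Endothelial sums on the log2 scale, with gene counts scaled by TMM, circles for preparation 1, squares for preparation 2 and the edgeR estimate with its 95% interval in black. All 10 intervals include 0, and the points of the 2 preparations fall on opposite sides of 0 for Actb, Gsn, Ezr, Msn and Cfl1. The preparation 2 points of Actb, Ezr and Cfl1 lie at only 0.003, 0.021 and 0.048.

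In the DoubleNegative wells no member was called between KO and WT, again against a background of 0 of 12729 genes or 0.0% in edgeR, with 1130 genes at an unadjusted p under 0.05 and 206 called by DESeq2. Fitted changes of the members ran from -2.44 to 0.43. The lowest was that of Ezr, which went from 47.3 CPM (WT) to 6.57 CPM (KO) in preparation 1 but from 0 to 1.08 CPM in preparation 2, the opposite direction, and with a sum left out its fitted change ran from -4.55 to 9.91, values that depend on the prior count where a sum is at 0. Gsn was lower in KO of preparation 1, by 1.66 on the log2 scale, and higher in preparation 2, by 0.77. Within smooth muscle-like wells Gsn stood at 660 and 687 CPM in WT and KO of preparation 1 and at 496 and 725 CPM in preparation 2. The share of fibroblast-like wells in preparation 1 was 61.9% in WT and 22.5% in KO, and its part in the Gsn values was not tested. The difference between gates in the effect of the genotype was tested as an interaction, which called no member and 0 of 12729 genes (0.0%, with 657 at an unadjusted p under 0.05 in edgeR and 52 called by DESeq2).

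Cell-to-cell spread was measured in the Endothelial wells as the coefficient of variation (CV) of CPM, computed in each of the 4 samples and averaged. Tmsb4x was the most even member, with a CV of 0.498 (0.363 to 0.634 over samples), followed by Actg1 at 0.527, Cfl1 at 0.558, Actb at 0.573, Pfn1 at 0.582, Msn at 0.621 and Vim at 0.631. The median CV of 3369 genes with a mean of at least 50 CPM was 1.26. Of those genes, 3.62% to 7.63% had a lower CV than these 7 members, in a ranking not matched for level. The neighbours in this order overlapped in their ranges over samples. Tmsb10 was at 0.969 and Gsn at 1.72, above 88.3% of the ranked genes. Ezr, under the level of that ranking, had a CV of 2.03. Counting error adds to the CV of low genes, and with wells thinned to 20000 counts the values were 0.527 for Tmsb4x, 0.733 for Pfn1, 1.17 for Tmsb10, 1.72 for Gsn and 2.23 for Ezr.

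Gsn and Ezr were uneven in different ways. Gsn had a count in 520 of 676 Endothelial wells, 76.9%, and in 71.5%, 75.8%, 92% and 86.5% in the 4 samples, with a median of 181 CPM and a highest well of 19190 CPM, inside the range of the fibroblast-like wells, which began at 3840 CPM. Its CV was highest in the KO sample of preparation 1, at 2.93. Ezr had a count in 212 of 676 Endothelial wells, 31.4%, and in 35.3%, 24.2%, 52% and 33.7% in the samples. It had a count in 11 of 37 fibroblast-like wells, 29.7%, and in 4 of 70 smooth muscle-like wells, 5.71%. With every well thinned to 20000 counts, the Endothelial shares were 28.5%, 19.9%, 36% and 25.8%, and the DoubleNegative shares 21.4%, 2.50%, 0% and 7.14%. In the WT DoubleNegative sample of preparation 2, 0 of 12 wells allows a share of up to 26.5% by the exact interval, which covers counting error only. The other 8 members had a count in 87.3% to 100% of Endothelial wells.

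**Figure D4:**
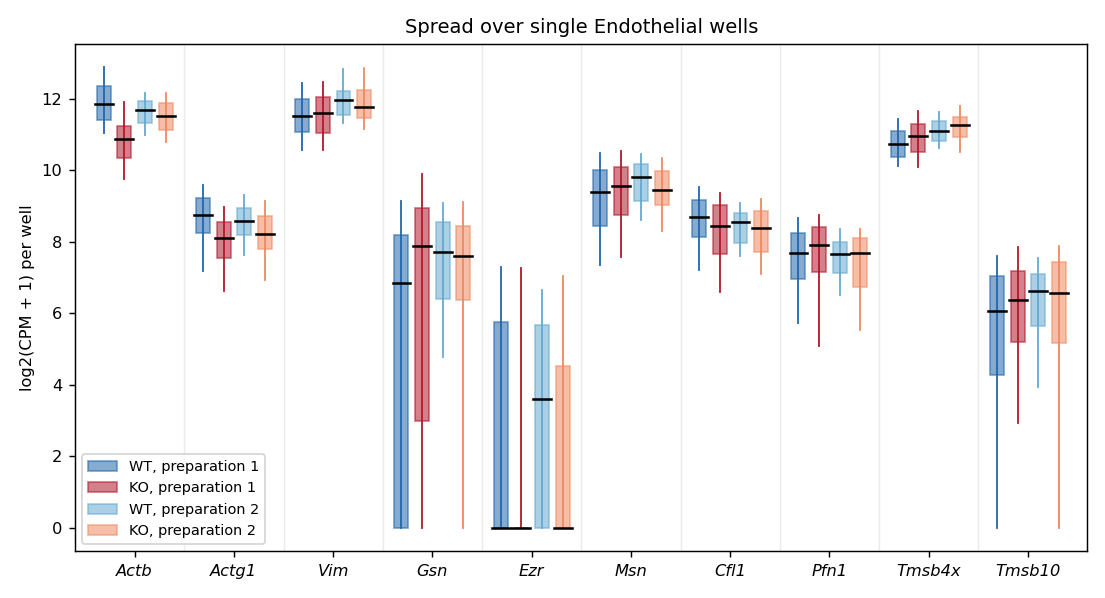
Spread of each member over single Endothelial wells as log2(CPM + 1), with the box from the lower to the upper quartile, the line from the 10th to the 90th percentile and the black bar at the median, for WT and KO of both preparations. Actb, Vim and Tmsb4x have short boxes at high levels, the boxes of Gsn reach far down in preparation 1 and less so in preparation 2, and the median of Ezr is 0 in 3 of the 4 samples.

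Over the same wells the members moved together only weakly. Pearson's r of log2(CPM + 1) was computed in each sample and averaged over the 4, as a description without a test, since wells of a sample share plate and depth. Of 45 pairs 41 had a mean r above 0, with a median of 0.11. Of the 29720 pairs of a member with another gene detected in at least 50% of these wells, 78.9% were above 0, with a median of 0.06, so a value above 0 is common to most genes here. The highest were Actb with Actg1 at 0.34 (0.24, 0.41, 0.25 and 0.46 in the samples), Actb with Tmsb4x at 0.31 and Actb with Pfn1 at 0.24. The lowest was Gsn with Tmsb4x at -0.08. The 2 thymosins reached 0.11 and the 2 ERM genes 0.03. The members' own mean r with the log2 depth of a well ran from -0.16 for Tmsb4x to 0.31 for Tmsb10.

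**Figure D5:**
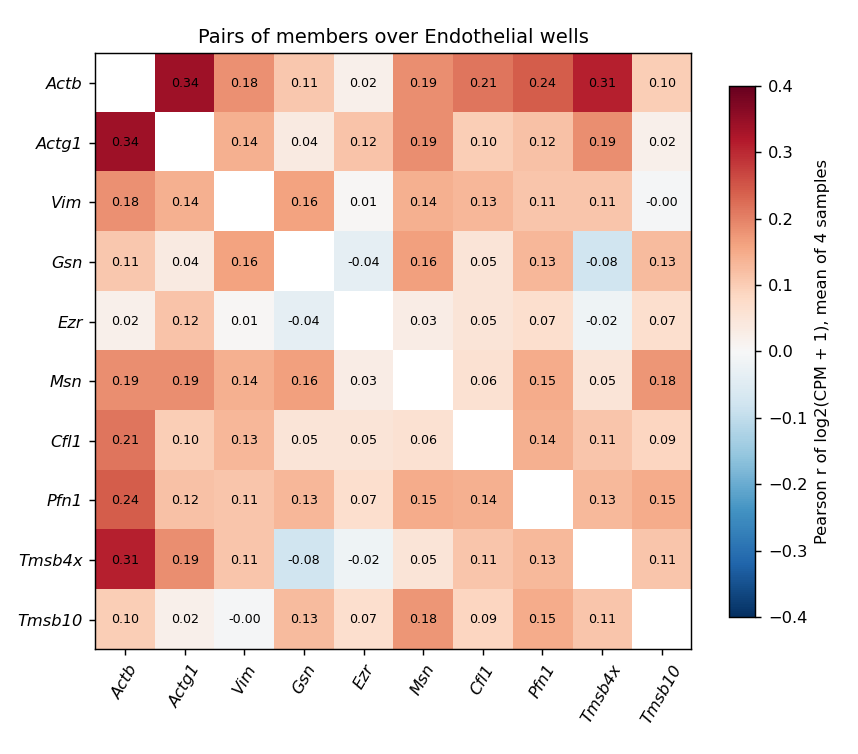
Mean over the 4 Endothelial samples of Pearson's r of log2(CPM + 1) for each of the 45 pairs of members, in red above and blue below 0. The row of Actb holds the highest values, 0.34 with Actg1 and 0.31 with Tmsb4x, the row of Ezr lies nearest to 0, and that of Gsn runs from -0.08 with Tmsb4x to 0.16 with Msn.

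Among 2981 genes with a count in at least 50% of Endothelial wells, the genes most like Actb were Myl6, a myosin light chain, at a mean r of 0.34, Actg1 at 0.34 and Flna, the actin crosslinker filamin A, at 0.33. Most like Msn were Myl12a, another myosin light chain, at 0.30, Anxa3 at 0.29 and Wdr1, a cofactor of cofilin, at 0.29. Vim was closest to Ptrf, a coat protein of caveolae, at 0.36, then Crip1 at 0.28 and Tagln2 at 0.28, and Tmsb4x to Actb at 0.31 and Ppia at 0.30. Actg1 had Actb at 0.34, Ehd1 at 0.31 and Timp3 at 0.30. Tmsb10 had a different company, with Bmp4 at 0.40 and the ribosomal protein genes Rps3 at 0.37 and Rpl12 at 0.36. Gsn was closest to Sod3, an extracellular superoxide dismutase, at 0.32, Cyp1b1 at 0.30 and Ncam1 at 0.30, Pfn1 to Gpx4 at 0.32, Tmem98 at 0.30 and Rpl10a at 0.27, Cfl1 to Uqcc2 at 0.25, Tsc22d1 at 0.23 and D8Ertd738e at 0.23, and Ezr to Kcnn4 at 0.24, Bpgm at 0.23 and Dpagt1 at 0.22.

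Many actin genes are known targets of serum response factor (SRF), which binds the CArG box, and 9 members had a promoter window in the RefSeq table (GRCm38.p6, 250 bases before to 50 after a start), with 13 windows in all. Actb had none there. A CArG box occurred in 1 of the 13, that of Actg1, against 1.63% of 32851 promoters and 1.37% of the 12376 promoters of genes tested here. The 3 windows of Tmsb10 overlap one another. It is shown with 10 bases on each side and the box in capitals, on the minus strand at chr11:120348566-120348595.
Actg1 promoter: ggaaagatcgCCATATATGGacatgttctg
The other motifs searched were GGAATG (TEAD), found in 1 of 13 windows against 14.7% of all promoters and 12.5% of those of tested genes, TGANTCA (AP-1), in 1 against 7.81% and 5.12%, and GGGCGG (SP/KLF), in 12 against 35.7% and 62.2%, each on both strands. The CArG box overlapped none of them. Actg1, the member with the CArG box, was not called between gates or genotypes. Srf itself was lower in Endothelial wells, with a log2 difference of -2.89 (adjusted p = 0.0175 in edgeR). Mkl2, from the same gene list as Srf, went the other way, at 3.05 (adjusted p = 0.0043 in edgeR). Mkl1, also of that list, was fitted as lower at -0.72 and was not called. Srf, Mkl1 and Mkl2 were named after their values were seen, and their part in the members' levels was not tested.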

How the data were processed

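Single aortic cells were analysed from 1024 wells. The authors aligned reads to GRCm38 with added spike-in and EYFP sequences (STAR 2.7.7a), removed duplicates (Picard 2.22.0) and counted reads per gene (HTSeq 0.9.1), per the labels. The deposited counts are whole numbers without normalization, and the annotation release is not given in the sources used here. Of all counts 51.9% were on genes and 1.25% on spike-ins, and the summary lines held 14.3% outside genes, 0.586% between overlapping genes and 32% with several alignments. Only gene rows entered library sizes and tests. Counts are reads and not molecules.

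Wells with under 20000 counts or 500 genes were left out (240 wells). Wells were summed per genotype, gate and preparation, since wells are not replicates, and p-values measure the spread between preparations. The sums held 8470943 to 94881185 counts in Endothelial and 926398 to 9435015 in DoubleNegative wells. The test was edgeR 4.0.16 (glmQLFit, glmQLFTest, TMM, filterByExpr, adjusted p under 0.05) on the 4 Endothelial sums or all 8 sums. It was tested on simulated data with 200 changed genes and 1 spread for all genes. Between gates it recovered 0%, 13.5% and 71% at log2 changes of 1, 2 and 3. Coordinates and exon lengths came from GENCODE M21, and promoters from RefSeq. A pseudocount of 1 CPM was used on log scales. Other tools were R 4.3.3, limma 3.58.1, DESeq2 1.42.0, and scipy 1.17.1, pandas 2.3.3 and numpy 2.4.6.

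Alternatives were RLE factors, no filter, DESeq2, each sum left out, deep wells (100000 counts), thinned wells, a block, limma with equal wells, wells by markers and spike-in totals, the last in preparation 1 only after the data were seen. The labels give each genotype a sort number and do not say that WT and KO shared a sort. The main fits had no block, and the preparation or the source sample entered as a block in the alternatives. After removal of group means, sums of a preparation correlated by 0.142 in Endothelial and 0.0761 in DoubleNegative wells. The 10 members and all lists were chosen with earlier results of these data known. Named were all members and, of the other lists, up to 5 called genes per direction with the largest change and the same direction in all 4 samples, or without calls the 3 of smallest p, and the 3 genes most like each member. Of these, 1 gene and the separate counts of 1 list are not reported here. Srf, Mkl1 and Mkl2 were named after their values were seen.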

Additional observations from a re-analysis of the deposited data

How the results depend on the processing

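Between gates all 10 members but Tmsb10 kept their direction in the 16 alternatives, and Actb and Gsn kept their call in all. The number of members called was 5 and became 2 with wells of at least 100000 counts, and 2 to 6 with a sum left out. Leaving out a sum gave 1355 to 2542 called genes against 2423. The log2 difference of Tmsb10, 0.02, became negative with RLE (-0.018), DESeq2 (-0.018), thinned wells (-0.013) and deep wells (-0.10), and ran from -0.24 to 0.50 with a sum left out. The source sample as replicate block gave 1964 called genes and the same number of members, 5.

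Between genotypes in Endothelial wells no member was called in any alternative. The count of called genes, 0, was 1 with the preparation as replicate block, 1 with RLE, 1 with wells chosen by markers, 4 with thinned wells, 6 with limma, 55 with DESeq2, 104 with no filter and 5 to 311 with a sum left out, 311 without WT 1 and 221 without WT 2. The sign turned for Msn with limma (-0.013) and for Pfn1 in thinned wells (-0.080). Over fits with a sum left out, Actb ran from -0.81 to -0.19, Vim ran from -0.10 to 0.34, Gsn from -0.21 to 0.43, Ezr from -0.47 to 0.20, Msn from -0.13 to 0.36, Cfl1 from -0.28 to 0.049 and Tmsb4x from -0.023 to 0.47. In DoubleNegative wells the count, 0, was 206 with DESeq2, 218 with no filter and 0 to 48 with a sum left out, and in the interaction 52, 163 and 0 to 42, with no member in any. The block changed no other call. The cause of these changes was not tested.

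With 2 preparations per genotype, 0% of genes with a log2 change of 1 were called in simulated sums with 1 spread for all genes. The 108 DoubleNegative wells leave the fibroblast-like class with 1 well per genotype in preparation 2. Scaling by spike-in counts within preparation 2 gave KO over WT of 0.08 for Vim, 0.04 for Pfn1 and 0.17 for Tmsb4x on the log2 scale. In preparation 1, with the genotypes on different plates, the same scaling, added after the data were seen, gave -1.70 to -0.065 over the 10 members and turned Vim, Gsn, Msn, Pfn1, Tmsb4x and Tmsb10 from higher to lower in KO. The median pair correlation, 0.11, was 0.10 by Spearman, 0.13 in deep wells and 0.08 in thinned wells.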
